A study of Mus musculus with 24 samples.

Results

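Genes for 10 neuropeptide precursors were followed in the pituitary glands of Cga-deficient and wild-type mice. They encode somatostatin (Sst), galanin (Gal), vasoactive intestinal peptide (Vip), tachykinins (Tac1), cocaine- and amphetamine-regulated transcript peptides (Cartpt), enkephalins (Penk), neuromedin B (Nmb), neuromedin U (Nmu), neurotensin (Nts) and cholecystokinin (Cck). On the array they were represented by all 14 probes annotated to these 10 symbols, among 45281 probes and 19057 named genes in all. The genes were chosen by their intensities and detection on these same arrays, so the differences between groups are a description of the genes and not a test of them, and no p-value is given for them. Of the 10 genes, 9 (all but Nts) had a probe above background on at least 6 arrays and were kept, among 12027 genes kept.

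Each of 24 pituitary RNA samples from 8-week-old mice was hybridised to its own Illumina expression array. The 4 groups of 6 arrays were mutant males and wild-type males, and mutant females and wild-type females. Mutants were deficient in Cga, which encodes the common alpha chain of the glycoprotein hormones thyrotropin, lutropin and follitropin, and wild types were their littermates. All animals shared the mixed strain background given as C57Bl6j 129S2SvPas. The labels name no promoter or cell type for the loss of Cga. Each sample is labelled pituitary gland, and the series title speaks of thyrotrope adenoma. No label ties a sample to a litter, so the spread between arrays stands for the spread between these 24 samples.

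Neuropeptides are cut from larger precursors in the secretory pathway, stored in granules and released to act on G protein-coupled receptors. In the anterior pituitary they reach hormone cells from the hypothalamus through the portal blood, and several are also made by the hormone cells themselves. Somatostatin is known for restraining growth hormone and thyrotropin release, vasoactive intestinal peptide for stimulating prolactin release in the rat, and galanin for its induction by estrogen in rat lactotropes. Because whole glands were measured, fewer cells of a type and less RNA per cell cannot be told apart.

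The arrays held the hormone genes of an anterior pituitary, and all 7 of those listed were kept. Cga averaged 12.41 ± 0.16 normalized log2 intensity in mutant males against 14.77 ± 0.092 in wild-type males, and 12.68 ± 0.27 in mutant females against 14.78 ± 0.099 in wild-type females (SD, n = 6 each; limma adjusted p = 3.8e-16 and 4.0e-15). It stayed above background on every array, and the sources used here do not say where in the gene its probe sits relative to the deletion. The share of probes detected (detection p under 0.05) averaged 48.2% ± 0.863 in mutant males, 41.7% ± 1.17 in wild-type males, 48.9% ± 1.37 in mutant females and 45.1% ± 0.893 in wild-type females (SD, n = 6 each). The lowest signal that counted as detected was 5.19 to 5.28 log2 in mutant males, 5.52 to 5.79 in wild-type males, 5.11 to 5.27 in mutant females and 5.32 to 5.46 in wild-type females. A signal near this level thus counted as detected more readily in mutants. Split by raw background (the 5th percentile of raw signal), 12 arrays were lower and 12 higher, with 3 of each group on either side.

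Across all 12027 genes, limma with Benjamini-Hochberg adjustment (called below an adjusted p of 0.05) called 25.0% higher and 26.5% lower in mutant than in wild-type males, and 22.8% higher and 25.5% lower in mutant than in wild-type females. Of the 9 kept neuropeptide genes, 3 were called higher and 2 lower in males, and 3 were called higher and 4 lower in females. Their median log2 difference was 0.30 in males and -0.30 in females, beside -0.01 and -0.03 for all genes. The 6 mutant and 6 wild-type arrays did not overlap for 5 of the 9 in males, where 30.7% of all genes showed no overlap, and for 5 of the 9 in females, where 23.6% did. Since the genes were chosen on these arrays, nothing is read from these counts. A call of a neuropeptide gene, here and below, states only on which side of the threshold it fell and is not a test of it. Sst, Tac1 and Cartpt were the genes called higher in both sexes, Penk and Nmu were called lower in both, and Gal and Vip were called lower in females.

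**Figure D1:**
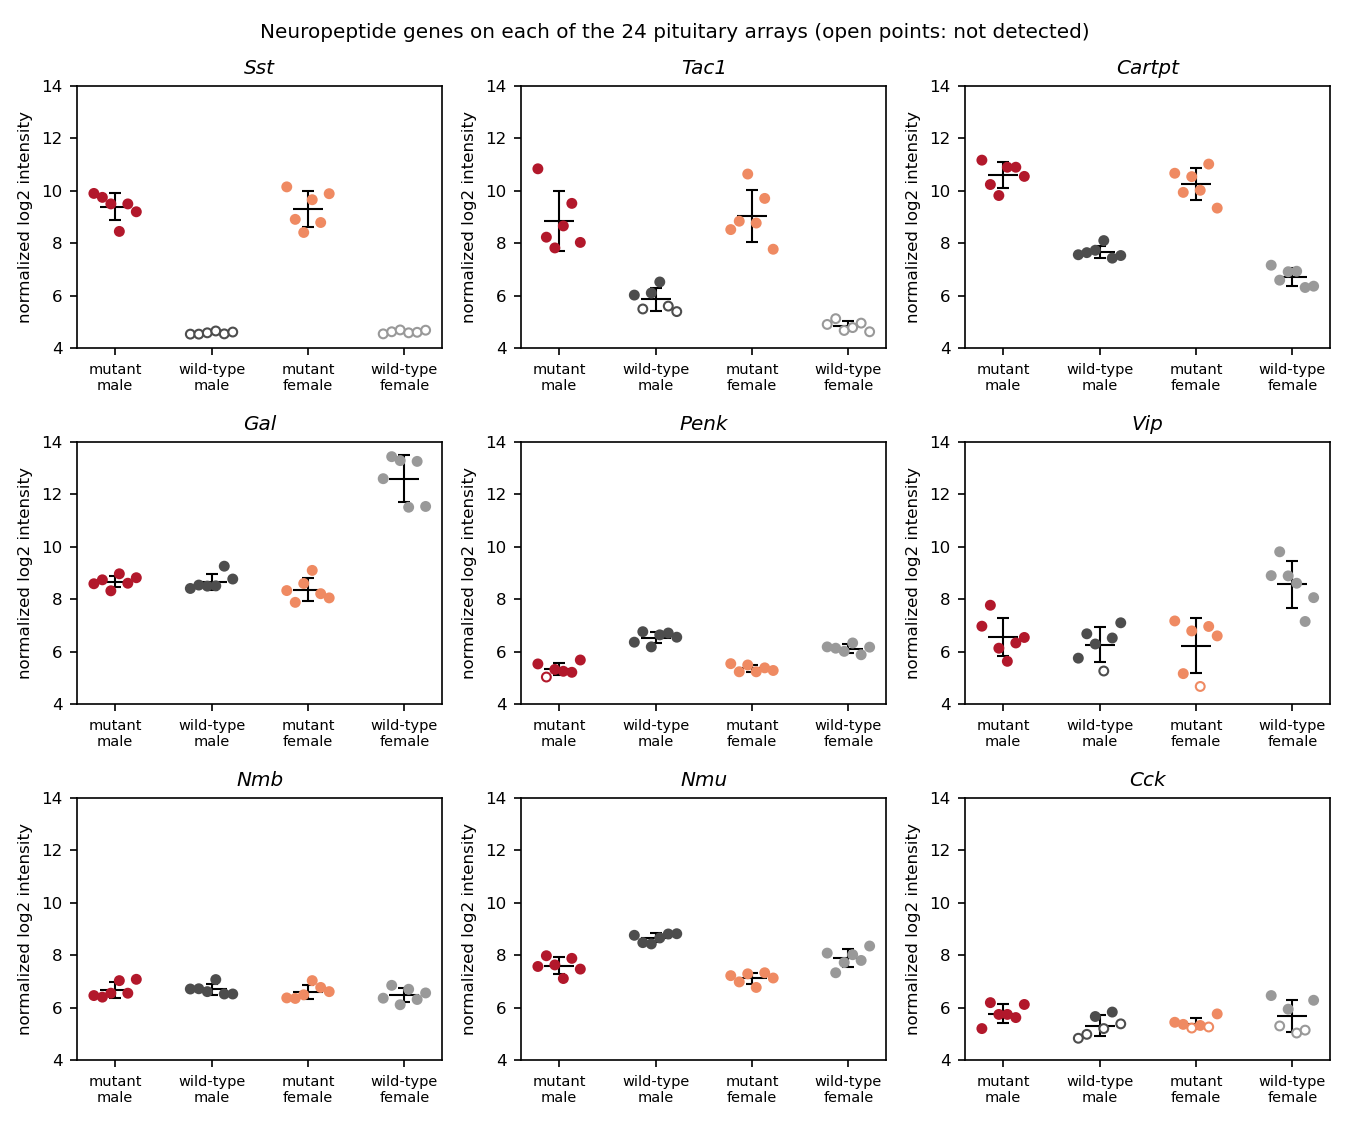
Normalized log2 intensity (y axis) of the 9 kept neuropeptide genes in mutant males, wild-type males, mutant females and wild-type females; each point is 1 array, open points were not above background, and bars are the mean ± SD of 6 arrays. Sst lies between 8.41 and 10.15 on the mutant arrays and between 4.53 and 4.69, always undetected, on the wild-type arrays, whereas Gal stands at 11.51 to 13.44 on wild-type female arrays and at 7.88 to 9.26 on all others.

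Promoters of 4 genes are shown, those of the 3 genes higher in mutants of both sexes and that of Gal, the gene lowest in mutant females relative to wild-type females among the 9 kept. The windows run from 250 bases before to 50 bases from the RefSeq transcription start on GRCm38.p6, each read 5′ to 3′ on the gene's own strand; a window was found for 9 of the 10 genes, all but Penk. Capitals mark matches to the cyclic AMP response element, TGACGTCA, or its shorter form, TGACG on either strand (CGTCA). The windows lie at chr16:23890795-23891094 (minus strand) for Sst, chr6:7554811-7555110 (plus strand) for Tac1, chr13:99900634-99900933 (minus strand) for Cartpt and chr19:3414495-3414794 (minus strand) for Gal.
Sst: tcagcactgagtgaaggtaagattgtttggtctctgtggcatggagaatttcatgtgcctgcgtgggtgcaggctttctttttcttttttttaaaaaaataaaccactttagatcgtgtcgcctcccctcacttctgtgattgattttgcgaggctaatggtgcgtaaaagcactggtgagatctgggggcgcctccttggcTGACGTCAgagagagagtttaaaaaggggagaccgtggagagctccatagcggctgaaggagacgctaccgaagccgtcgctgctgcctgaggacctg
Tac1: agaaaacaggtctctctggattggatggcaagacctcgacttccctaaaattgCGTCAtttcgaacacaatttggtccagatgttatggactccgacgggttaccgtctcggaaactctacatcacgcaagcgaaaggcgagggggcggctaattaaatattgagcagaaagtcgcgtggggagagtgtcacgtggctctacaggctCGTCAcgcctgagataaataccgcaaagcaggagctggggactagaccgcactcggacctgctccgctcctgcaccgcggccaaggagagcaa
Cartpt: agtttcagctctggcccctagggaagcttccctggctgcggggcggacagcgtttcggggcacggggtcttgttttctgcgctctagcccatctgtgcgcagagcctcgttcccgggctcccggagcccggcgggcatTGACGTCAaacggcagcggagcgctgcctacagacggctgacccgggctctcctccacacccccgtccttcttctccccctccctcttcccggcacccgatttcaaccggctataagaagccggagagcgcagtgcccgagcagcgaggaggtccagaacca
Gal: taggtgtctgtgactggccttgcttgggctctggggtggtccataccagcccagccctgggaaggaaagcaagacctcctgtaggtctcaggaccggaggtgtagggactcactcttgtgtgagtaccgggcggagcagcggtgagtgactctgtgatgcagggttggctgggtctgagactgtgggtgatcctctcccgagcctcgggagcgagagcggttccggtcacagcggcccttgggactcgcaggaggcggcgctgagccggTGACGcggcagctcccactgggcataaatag
Sst held the full TGACGTCA at -48 to -41 and Cartpt at -112 to -105, counted from the start. Tac1 held the shorter form at -197 to -193 and at -43 to -39, and Gal held it after the start, at 20 to 24. The full form stood in 2 of the 9 windows and in 588 of 32851 RefSeq promoter windows (1.79%). The shorter form, which lies inside every full one, stood in 8 of the 9, all but Nmb, and in 6837 of the 32851 (20.8%). An estrogen response element (GGTCA, 3 bases, TGACC, on either strand) stood in none of the 9 and in 23 of the 32851 (0.07%). A match or its absence in these windows describes the letters and says nothing of a factor bound there.

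Somatostatin RNA was detected in mutant glands and not in wild-type ones. The Sst probe (NM_009215) gave raw intensities of 501, 852 and 1220 in mutant males (lowest, median and highest of 6), against 78, 88 and 107 in wild-type males. In females it gave 341, 779 and 1247 in mutants, against 80, 88 and 96 in wild types. All 12 mutant arrays were above background and none of the 12 wild-type arrays was, so the groups stand wholly apart, the wild-type level is only a ceiling, and the probe passed the detection filter through the mutant arrays alone.

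On the normalized scale Sst averaged 9.38 ± 0.52 in mutant males against 4.57 ± 0.048 in wild-type males, and 9.30 ± 0.69 in mutant females against 4.62 ± 0.060 in wild-type females (SD, n = 6 each). Set against the lowest signal detected on each wild-type array, this was at least 13.5-fold higher in mutant males and at least 15.0-fold higher in mutant females, bounds that hold for this background correction and these detection limits. The measured log2 difference was 4.81 ± 0.23 (SE) in males and 4.68 ± 0.23 in females. It was 5.17 and 4.45 in males on the arrays of lower and of higher raw background, and 4.54 and 4.83 in females. The female and male differences parted by -0.13 ± 0.32 (95% interval -0.79 to 0.54), and mutant females differed from mutant males by -0.08 ± 0.23 (-0.55 to 0.39). The SE and interval between the mutant sexes are too narrow. They rest on a spread shared with the undetected wild-type groups, whose SDs were 0.048 and 0.060. With every signal of all 24 arrays raised to 5.79, the highest of the arrays' lowest detected signals, the differences were 3.60 in males and 3.51 in females, and without background correction they were 3.10 and 2.99.

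Galanin RNA set wild-type females apart from the 3 other groups. Raw Gal intensity was 336, 401 and 674 in mutant females (lowest, median and highest), against 2596, 6798 and 10408 in wild-type females. Normalized, Gal ran from 7.88 through a median of 8.27 to 9.10 in mutant females and from 11.51 through 12.93 to 13.44 in wild-type females. In mutant males it ran from 8.32 through 8.68 to 8.97, and in wild-type males from 8.41 through 8.52 to 9.26. Every wild-type female array lay above every other array, and the 3 other groups overlapped one another.

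Gal was 18.9-fold lower in mutant than in wild-type females, a log2 difference of -4.24 ± 0.28 (8.36 ± 0.44 against 12.60 ± 0.89; SD, n = 6 each). In males the difference was 0.01 ± 0.28 (95% interval -0.56 to 0.58; 8.68 ± 0.22 in mutants against 8.66 ± 0.32 in wild types). The female difference minus the male one was -4.25 ± 0.39 (-5.06 to -3.45). Wild-type females exceeded wild-type males 15.4-fold (3.94 ± 0.28; 4.62 and 3.26 on the arrays of lower and of higher raw background), whereas mutant females and mutant males differed by -0.31 ± 0.28 (-0.88 to 0.26). The female difference was -4.84 on the arrays of lower and -3.65 on those of higher raw background, and the female minus male difference was -4.90 and -3.60.

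Vasoactive intestinal peptide RNA, like that of Gal, had its highest mean in wild-type females. The kept Vip probe measured 4.67, 6.69 and 7.17 in mutant females (lowest, median and highest log2 intensity) against 7.15, 8.75 and 9.81 in wild-type females. It measured 5.63, 6.43 and 7.77 in mutant males against 5.26, 6.40 and 7.10 in wild-type males. It was above background on 5 of 6 mutant female and 5 of 6 wild-type male arrays, and on all of the other groups. The highest mutant female array lay just above the lowest wild-type female array, so these groups overlapped.

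Vip was 5.08-fold lower in mutant than in wild-type females (log2 difference -2.34 ± 0.44; 6.22 ± 1.0 against 8.57 ± 0.90, SD, n = 6 each). In males the difference was 0.30 ± 0.44 (95% interval -0.60 to 1.20). The female difference minus the male one was -2.64 ± 0.62 (-3.92 to -1.37). It was -3.55 on the arrays of lower and -1.73 on those of higher raw background, where it was no longer called. Wild-type females exceeded wild-type males 4.94-fold (2.30 ± 0.44), with no overlap between their arrays, while mutant females differed from mutant males by -0.34 ± 0.44. That difference of the wild-type sexes was 2.96 and 1.64 on the arrays of lower and higher raw background, and it was not called on the arrays of higher raw background. Without background correction the female difference was -1.56, the female minus male one -1.73 and that of the wild-type sexes 1.56. A further Vip probe was undetected on all 24 arrays, with raw intensities of 88 to 120, so the Vip values rest on 1 probe.

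**Figure D2:**
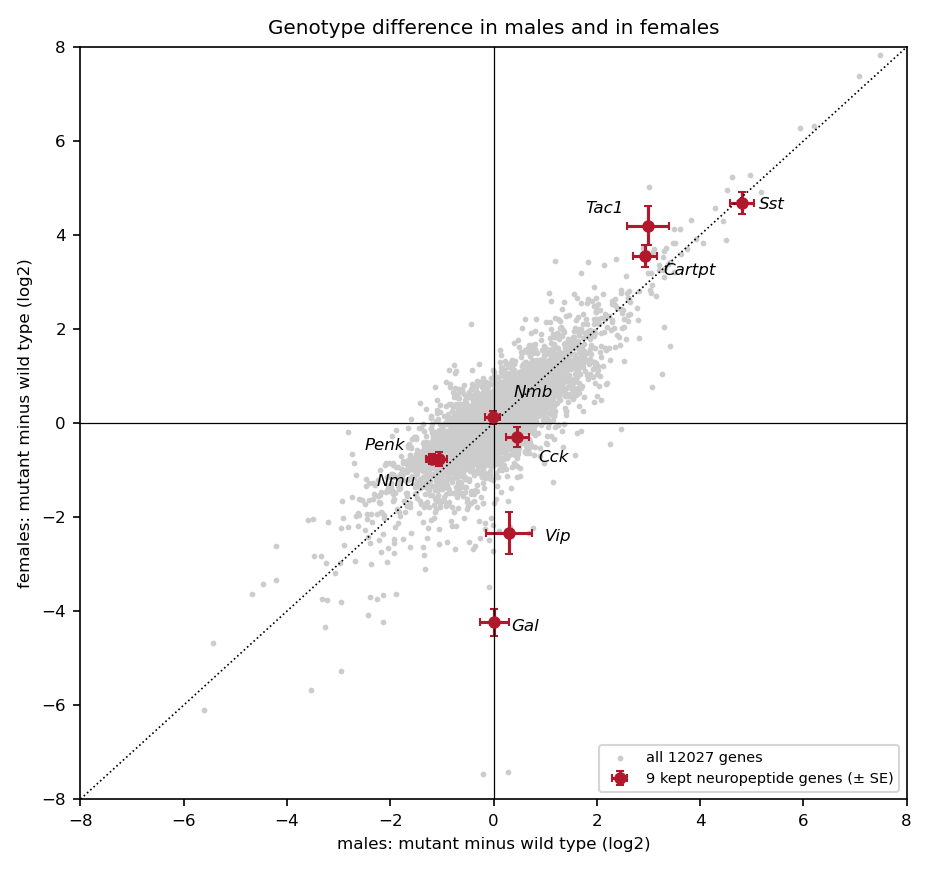
Mutant minus wild-type log2 difference in males (x axis) and in females (y axis) for 12027 genes (grey points) and the 9 kept neuropeptide genes (red, bars ± SE); the dotted line marks equal differences. Sst, Tac1 and Cartpt lie at the upper right, Penk and Nmu at the lower left, and Gal (0.01 in males, -4.24 in females) and Vip (0.30 and -2.34) lie straight below the centre.

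Tac1 gives rise to the tachykinins substance P and neurokinin A. Its kept probe (NM_009311) ranged from 7.82 through a median of 8.44 to 10.84 in mutant males, against 5.39, 5.81 and 6.52 in wild-type males, where 3 of 6 arrays were above background. In females it ranged from 7.77 through 8.81 to 10.64 in mutants, against 4.62, 4.84 and 5.12 in wild types, where none of 6 arrays was. The lowest mutant array lay above the highest wild-type array of its sex in both sexes. With fewer than 6 wild-type arrays above background, the probe passed the detection filter only with the mutant arrays. The filter thus favoured its direction.

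Tac1 was 7.96-fold higher in mutant than in wild-type males (log2 difference 2.99 ± 0.41; 8.85 ± 1.1 against 5.86 ± 0.44, SD, n = 6 each). It was at least 12.5-fold higher in mutant than in wild-type females (4.20 ± 0.41; 9.04 ± 1.0 against 4.84 ± 0.18). The female minus male difference of 1.21 ± 0.58 was not called, though it was without mutant male 1 (1.61), and it was 0.41 when every signal was raised to 5.79. With signals so raised the differences were 2.85 in males and 3.25 in females, and without background correction they were 2.0 and 2.62, so the size of both, and the bound in females, depended on the treatment of background. Wild-type females lay below wild-type males without overlap, by -1.02 ± 0.41 (not called), and by -0.21 with signals raised to 5.79. No least fold can be given, since only 3 of 6 wild-type male arrays were above background. Mutant females and males differed by 0.19 ± 0.41 (-0.65 to 1.04), an SE and interval narrower than the spread of the mutant arrays alone would give. A Tac1 probe designed on another transcript, AK015286, was undetected on all 24 arrays.

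Cartpt encodes the precursor of the peptides known as CART, which act on feeding and on hormone release. Its brighter probe (NM_013732) measured 9.82, 10.72 and 11.17 in mutant males (lowest, median and highest log2 intensity) against 7.43, 7.60 and 8.10 in wild-type males. In females it measured 9.34, 10.28 and 11.02 in mutants against 6.31, 6.75 and 7.16 in wild types. All arrays were above background, and mutant and wild-type arrays did not overlap in either sex.

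Cartpt was 7.64-fold higher in mutant than in wild-type males (log2 difference 2.93 ± 0.23; 10.60 ± 0.50 against 7.66 ± 0.23, SD, n = 6 each) and 11.7-fold higher in mutant than in wild-type females (3.55 ± 0.23; 10.26 ± 0.60 against 6.71 ± 0.34). A further kept probe of the same transcript gave 2.65 ± 0.27 (6.29-fold) in males and 3.20 ± 0.27 (9.21-fold) in females, so the probes ran the same way. Without background correction the differences were 2.53 in males and 2.82 in females. Wild-type females were 1.94-fold below wild-type males without overlap (-0.95 ± 0.23; -0.93 ± 0.27 by the further probe). This was -0.76 and not called on the arrays of lower raw background, and -1.15 on those of higher. In mutants the sexes differed by -0.34 ± 0.23 (95% interval -0.82 to 0.14), narrower than the spread of the mutant arrays alone would give. The female minus male difference of the genotypes was 0.61 ± 0.33 (-0.07 to 1.29).

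Penk, the precursor of the opioid enkephalins, was a dim probe that stood lower in mutants. It measured 5.03, 5.29 and 5.68 in mutant males (lowest, median and highest) against 6.18, 6.60 and 6.76 in wild-type males, and 5.23, 5.33 and 5.54 in mutant females against 5.88, 6.15 and 6.33 in wild-type females. Mutant and wild-type arrays did not overlap in either sex, and 1 mutant male array was not above background. Penk was 2.29-fold lower in mutant than in wild-type males (-1.20 ± 0.11) and 1.69-fold lower in mutant than in wild-type females (-0.76 ± 0.11). Both values depended on the treatment of background, since without its correction they were -0.54 and -0.32, and with signals raised to 5.79 they were -0.75 and -0.33. Wild-type females lay below wild-type males (-0.42 ± 0.11), with overlap, and mutant females and males differed by 0.02 ± 0.11 (-0.21 to 0.25). The wild-type sexes differed by -0.33 and -0.51 on the arrays of lower and of higher raw background and were called on neither set.

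Neuromedin U, named for its action on uterine muscle, stood lower in mutants as well. Nmu measured 7.11, 7.60 and 7.98 in mutant males (lowest, median and highest) against 8.43, 8.71 and 8.82 in wild-type males, with no overlap. It measured 6.77, 7.18 and 7.33 in mutant females against 7.33, 7.91 and 8.35 in wild-type females, where the groups met at 7.33. Nmu was 2.08-fold lower in mutant than in wild-type males (-1.05 ± 0.15) and 1.69-fold lower in mutant than in wild-type females (-0.76 ± 0.15). Females lay below males in both genotypes, by -0.49 ± 0.15 in mutants (1.40-fold, not called) and by -0.78 ± 0.15 in wild types (1.72-fold, called). The difference within males was -0.83 and -1.28 on the arrays of lower and of higher raw background, and within females -0.55 and -0.98.

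Neuromedin B is a bombesin-like peptide that is made in rat thyrotropes and restrains thyrotropin release there. Nmb was above background on all 24 arrays, between 6.11 and 7.08 log2, and its 4 groups overlapped throughout. It averaged 6.68 ± 0.30 in mutant males against 6.69 ± 0.20 in wild-type males, and 6.60 ± 0.26 in mutant females against 6.48 ± 0.27 in wild-type females (SD, n = 6 each). The difference was -0.02 ± 0.14 in males (95% interval -0.31 to 0.28) and 0.12 ± 0.14 in females (-0.17 to 0.42).

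Cholecystokinin and neurotensin, peptides shared by gut and brain, were at or under the limit of detection. Cck was above background on 6 of 6 mutant male arrays and 2 of 6 wild-type male arrays, and on 4 of 6 mutant female and 3 of 6 wild-type female arrays. It averaged 5.77 ± 0.36 in mutant males against 5.31 ± 0.39 in wild-type males, and 5.39 ± 0.20 in mutant females against 5.69 ± 0.62 in wild-type females. The differences of 0.46 ± 0.22 and -0.30 ± 0.22 were not called and all groups overlapped. The male one was called without mutant male 1 (0.57) or without wild-type male 5 (0.56), and was 0.11 with signals raised to 5.79. Nts had 2 probes, with raw intensities of 93 to 153 and of 83 to 127, and neither was above background on any of the 24 arrays. A change in Nts was not detectable at this signal.

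Between the wild-type sexes 5 of the 9 kept genes were called, and between the mutant sexes 0 of the 9. In wild-type females against wild-type males, limma called 12.5% of all genes higher and 14.8% lower. Among the 9 neuropeptide genes, Gal and Vip were called higher, and Cartpt, Penk and Nmu lower, in wild-type females than in wild-type males. In mutants, where 0.0333% of all genes were called higher and 0.0333% lower, 0 of the 9 were called (Nmu differed most, by -0.49 ± 0.15). The female minus male difference of the genotypes was called higher for 7.25% and lower for 6.36% of all genes, and for Gal and Vip among the 9, both lower. No share of the 9 is read against these. With arrays scaled to their 75th percentile the shares over all genes turned round, to 729 genes higher and 958 lower for the difference of the genotypes (872 and 765 otherwise) and to 1852 higher and 1432 lower between the wild-type sexes (1506 and 1782 otherwise).

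Markers of other cell types also differed between the wild-type sexes. In wild-type females against wild-type males, 3 of the 6 kept immune markers were called higher (Cd74 by 0.48, H2-Aa by 0.64 and Aif1 by 0.48 log2). So were 2 of the 6 neuron markers (Slc17a6 by 1.06 and Slc32a1 by 0.83), 2 of the 5 oligodendrocyte and astrocyte markers (Mbp by 0.71 and Aqp4 by 0.45) and 1 of the 5 posterior lobe markers (Col25a1 by 0.43). In these 4 lists 0 were called lower (1, Syt1, at an unadjusted p under 0.05). Of all genes 12.5% were called higher and 14.8% lower. Both kept red blood cell markers were lower (Hba-a1 by -0.83 ± 0.30, limma adjusted p = 0.040, and Alas2 by -1.18 ± 0.42, adjusted p = 0.038). Between the mutant sexes 0 markers of these lists were called (3 at an unadjusted p under 0.05), where 0.0333% of all genes were called higher and 0.0333% lower. Their part in the neuropeptide values was not tested.

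The arrays of a mutant group spread widely in Sst, Tac1 and Cartpt. In mutants the SD of Sst was 0.52 in males and 0.69 in females, above that of 98.3% and 99.3% of all genes in those groups. The SD of Tac1 was 1.1 and 1.0, above 99.8% of genes in each, and that of Cartpt 0.50 and 0.60, above 98.1% and 98.8%. In wild-type males the SD of Sst was 0.048, above 0.516% of genes, but the probe was undetected there. Gal had an SD of 0.89 in wild-type females, above 99.4% of genes, and Vip one between 0.66 and 1.0 in every group, above at least 99.2%.

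Scatter between beads of an array was measured as well. The neuropeptide probes had 24 to 68 beads per array, and the standard error between beads had a median of 4.02% of the signal and reached 7.1%. Within the mutant males, array 1 was the highest for Sst, Tac1 and Cartpt alike, but array 3, the lowest for Tac1 and Cartpt, was above the group mean for Sst. Within the mutant females, array 3 was the highest for Tac1 and the lowest for Sst, and array 6, the lowest for Tac1 and Cartpt, was next to the highest for Sst. In wild-type females array 2 was the highest for Gal and for Vip, and the lowest was array 4 for Gal and array 5 for Vip. With 6 arrays a group these orders are a description.

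**Figure D3:**
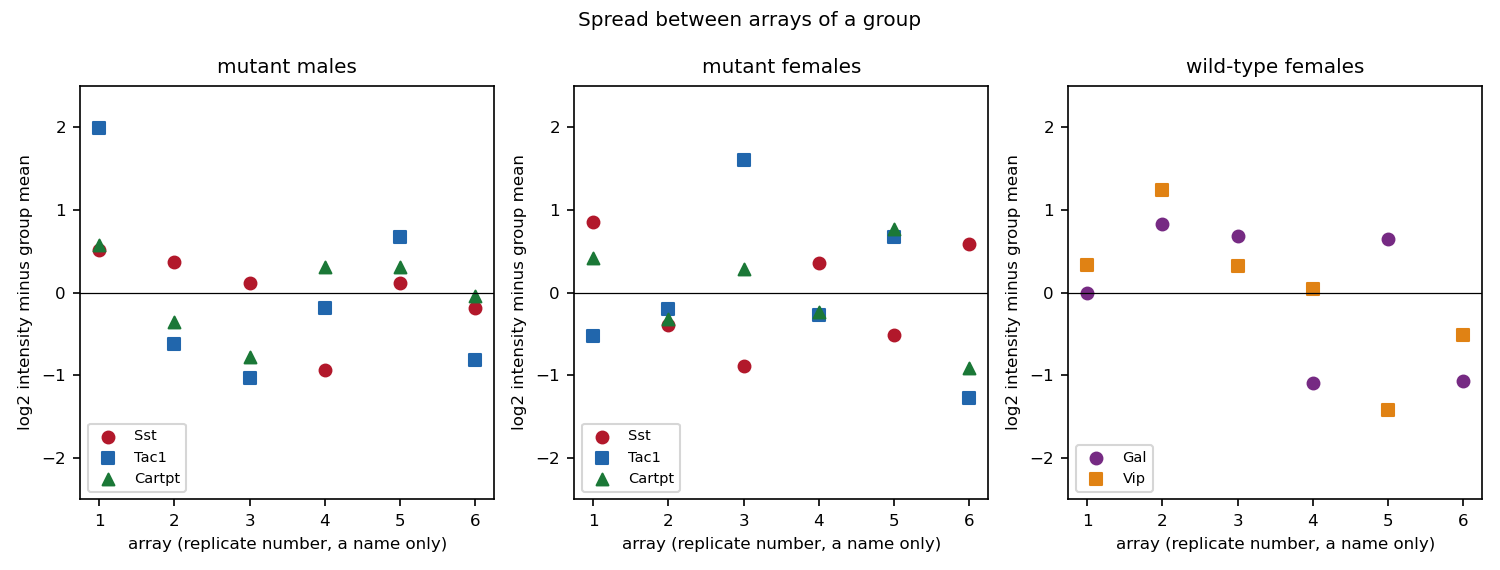
Log2 intensity minus the group mean (y axis) on the 6 arrays (x axis, numbered as names only) of the mutant males and mutant females for Sst, Tac1 and Cartpt, and of the wild-type females for Gal and Vip; each symbol is 1 array. Array 1 of the mutant males is the highest for all 3 genes, whereas array 3 of the mutant females is the highest for Tac1 and the lowest for Sst.

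The genes most like each neuropeptide gene were ranked by Pearson correlation over the 24 arrays against 12018 other genes, as a description, since the arrays share their groups. Aoc1, a copper-containing amine oxidase, was nearest to Sst (r = 0.991), with log2 differences of 3.63 ± 0.14 in males and 3.59 ± 0.14 in females. Slc6a3, the dopamine transporter, was nearest to Cartpt (r = 0.973; 1.94 ± 0.18 and 1.95 ± 0.18). Ly6g6c was nearest to Tac1 (r = 0.972; 4.97 ± 0.44 and 5.27 ± 0.44), and Thbs2, a thrombospondin, was next for both Tac1 (r = 0.968) and Cartpt (r = 0.969). These genes stood higher in mutants of both sexes.

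Reln, the secreted glycoprotein reelin, was nearest to Gal (r = 0.967), with a log2 difference of -0.20 ± 0.18 in males and -7.47 ± 0.18 in females, and Rxfp1, a relaxin receptor, was next (r = 0.965; -0.09 ± 0.20 and -3.48 ± 0.20). Ifna1 was nearest to Penk (r = 0.965; -1.78 ± 0.12 and -1.17 ± 0.12) and Acot9, an acyl-CoA thioesterase, to Nmu (r = 0.930; -1.06 ± 0.11 and -0.70 ± 0.11). Gas6, a ligand of TAM receptor kinases, was nearest to Vip at r = 0.844 (-0.04 ± 0.11 and -0.65 ± 0.11). For Nmb and Cck the nearest genes, C030013C21Rik and Crebzf, reached 0.707 and 0.642.

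Of 25 listed receptor genes, 23 had a named probe and 8 were kept. Of these, 5 were called lower and 0 higher in mutant males, and 4 lower and 0 higher in mutant females (also at an unadjusted p under 0.05). Of all genes 26.5% were called lower and 25.0% higher in mutant males, and 25.5% lower and 22.8% higher in mutant females. The counts include Tacr3, which was undetected on every mutant array and was kept only through wild-type arrays, so that its direction was set by the filter. With a stricter detection filter the number called lower was 3 in males and 2 in females, and with the mean of a gene's probes in place of the brightest, 1 receptor gene was called higher in each sex. The galanin receptors Galr1, Galr2 and Galr3, the opioid receptor Oprm1, the receptors Vipr1, Nmbr, Nmur1, Nmur2 and Cckar, and the somatostatin receptors Sstr1, Sstr3 and Sstr4 were undetected on all 24 arrays, and Oprd1 and Vipr2 had no named probe.

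Sstr5, a somatostatin receptor of pituitary hormone cells, ranged from 4.91 through 5.27 to 5.57 in mutant males, where 3 of 6 arrays were above background, against 7.49, 7.84 and 8.35 in wild-type males. In females it ranged from 5.23 through 5.52 to 6.06 in mutants against 6.48, 6.73 and 6.87 in wild types. The mutant arrays lay below all wild-type arrays of their sex. Sstr5 fell 6.37-fold in mutant males (-2.67 ± 0.14, limma adjusted p = 2.8e-14) and 2.14-fold in mutant females (-1.10 ± 0.14, adjusted p = 4.7e-07), and the female and male effects differed by 1.57 ± 0.20 (adjusted p = 8.2e-06). Without background correction these 3 values were -1.47, -0.52 and 0.95, all still called.

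Sstr2, a further somatostatin receptor, fell 2.33-fold in mutant males (7.20 ± 0.33 against 8.42 ± 0.68, SD, n = 6 each; limma adjusted p = 0.00029). In females it measured 6.87 ± 0.30 in mutants against 6.76 ± 0.55 in wild types (adjusted p = 0.74). The sexes differed in this effect (1.33 ± 0.36, adjusted p = 0.016), a call lost on the 12 arrays of lower raw background (1.07, adjusted p = 0.33) and on the 12 of higher (1.60, adjusted p = 0.12). Ntsr2, a neurotensin receptor, fell 2.13-fold in mutant males (6.87 ± 0.78 against 7.96 ± 0.34; adjusted p = 0.0015). In females it measured 6.59 ± 0.37 in mutants against 6.09 ± 0.45 in wild types (adjusted p = 0.13), and the sexes differed by 1.59 ± 0.38 (adjusted p = 0.0065). On the arrays of lower raw background Ntsr2 was called higher in mutant females (0.76, adjusted p = 0.020). On the arrays of higher raw background the Ntsr2 fall in males was -1.08 (adjusted p = 0.068) and the difference between the sexes 1.33 (adjusted p = 0.26).

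Cckbr, the cholecystokinin B receptor, had its highest mean in wild-type females, as Gal and Vip did. It ranged from 4.95 through 5.30 to 6.04 in mutant females against 6.39, 8.41 and 8.95 in wild-type females, without overlap. It fell 5.78-fold in mutant females (-2.53 ± 0.36, limma adjusted p = 2.3e-06). In males it measured 5.42 ± 0.47 in mutants against 5.90 ± 0.38 in wild types (adjusted p = 0.27). The female minus male difference of -2.05 ± 0.51 passed (adjusted p = 0.0089), but not on the arrays of lower raw background alone (-1.15, adjusted p = 0.51). Without background correction the female fall was -1.50 and the difference between the sexes -1.28, both still called. Tacr3, the neurokinin B receptor, was detected on none of the 12 mutant arrays, on 2 of 6 wild-type male arrays and on 4 of 6 wild-type female arrays. Since it was kept through those wild-type arrays alone, its values are a description. It differed by -0.72 ± 0.14 log2 in males and by -0.66 ± 0.14 in females, and by -0.03 and -0.04 with signals raised to 5.79. No least fold can be given, since the wild-type arrays of both sexes were in part undetected as well.

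Of 41 other neuropeptide precursors listed, 33 had a named probe and 11 were kept. In males 5 were called higher and 1 lower, where 25.0% and 26.5% of all genes were, and in females 6 higher and 1 lower, where 22.8% and 25.5% were. Ghrh, Ucn3 and Nppa, detected on no wild-type array, passed the detection filter through mutant arrays alone, so their direction was set by the filter, and nothing is read from the counts. Without them the genes called higher were Rln3 and Pdyn in males, and Rln3, Pdyn and Grp in females. Rln3 and Grp were each detected on fewer than 6 wild-type arrays, so the filter favoured their direction too. With a stricter detection filter, the number called higher was 2 in each sex. The number called lower was 3 in males with arrays scaled to their 75th percentile and 3 in females with no detection filter. Rln3, relaxin-3, stood 7.08-fold higher in mutant males (8.36 ± 0.84 against 5.54 ± 0.24, SD, n = 6 each) and 7.01-fold higher in mutant females (8.08 ± 0.66 against 5.27 ± 0.40). Its groups did not overlap in either sex, and its values are a description. Only 2 of 6 wild-type arrays of each sex were above background, so the folds rest on wild-type values near the detection limit. With signals raised to 5.79 the log2 differences were 2.55 in males and 2.28 in females, and without background correction 1.73 and 1.61.

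Pdyn, the precursor of the opioid dynorphins, rose 1.80-fold in mutant males (10.77 ± 0.24 against 9.92 ± 0.37, SD, n = 6 each; limma adjusted p = 5.4e-05) and 2.27-fold in mutant females (10.70 ± 0.081 against 9.52 ± 0.35; adjusted p = 6.1e-07). Oxt, oxytocin, a hormone of hypothalamic axons in the posterior lobe, fell 3.38-fold in mutant males (6.79 ± 0.53 against 8.54 ± 0.27; adjusted p = 6.6e-08) and 5.50-fold in mutant females (6.48 ± 0.43 against 8.93 ± 0.21; adjusted p = 2.0e-10; -1.74 log2 without background correction, against -2.46 ± 0.20 with it). Ghrh and Ucn3, which encode growth hormone-releasing hormone and urocortin 3, were each detected on 6 of 6 mutant male arrays, on 6 of 6 (Ghrh) and 5 of 6 (Ucn3) mutant female arrays and on no wild-type array. Kept through the mutant arrays alone, whose detection limit was lower, they are described without a test. In females Ghrh stood at least 1.12-fold higher in mutants. No least fold is given for Ucn3 there, as not every mutant female array was above background. In males no fold can be given above the detection limit for Ghrh or Ucn3. With signals raised to 5.79 the differences were between 0.00 and 0.06 log2.

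Of 9 listed genes for cutting and finishing peptide precursors, 7 had a named probe and 6 were kept. In males 1 was called higher and 1 lower, where 25.0% and 26.5% of all genes were. In females 1 was called higher and 3 lower, where 22.8% and 25.5% were, and nothing is read from these counts. Cpe, carboxypeptidase E, which trims the basic residues left after cleavage, rose 1.32-fold in mutant males (14.41 ± 0.083 against 14.01 ± 0.098, SD, n = 6 each; limma adjusted p = 0.00026) and 1.41-fold in mutant females (14.39 ± 0.14 against 13.90 ± 0.17; adjusted p = 2.4e-05), at intensities close to the upper end of the scale. The male call was lost on the arrays of higher raw background (0.31, adjusted p = 0.071). Furin, a convertase of the trans-Golgi network, fell 1.42-fold in mutant males (-0.50 ± 0.10, adjusted p = 0.00018) and by 0.30 ± 0.10 in mutant females (adjusted p = 0.017). The female call was lost with the mean of its probes (-0.20, adjusted p = 0.18), on the arrays of higher raw background (-0.18, adjusted p = 0.42) and without mutant female 1 (-0.24, adjusted p = 0.053). The female falls of Pcsk1n, an inhibitor of convertase 1 (-0.39 ± 0.11, adjusted p = 0.0064), and Qpct, which forms pyroglutamate ends (-0.55 ± 0.19, adjusted p = 0.020), were lost on the arrays of lower raw background (-0.44 and -0.30; adjusted p = 0.053 and 0.40). That of Pcsk1n was also lost on the arrays of higher raw background (-0.33, adjusted p = 0.16), and that of Qpct also with only the groups compared in the fit (adjusted p = 0.069) and without wild-type female 1 or 5 or mutant female 6.

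**Figure D4:**
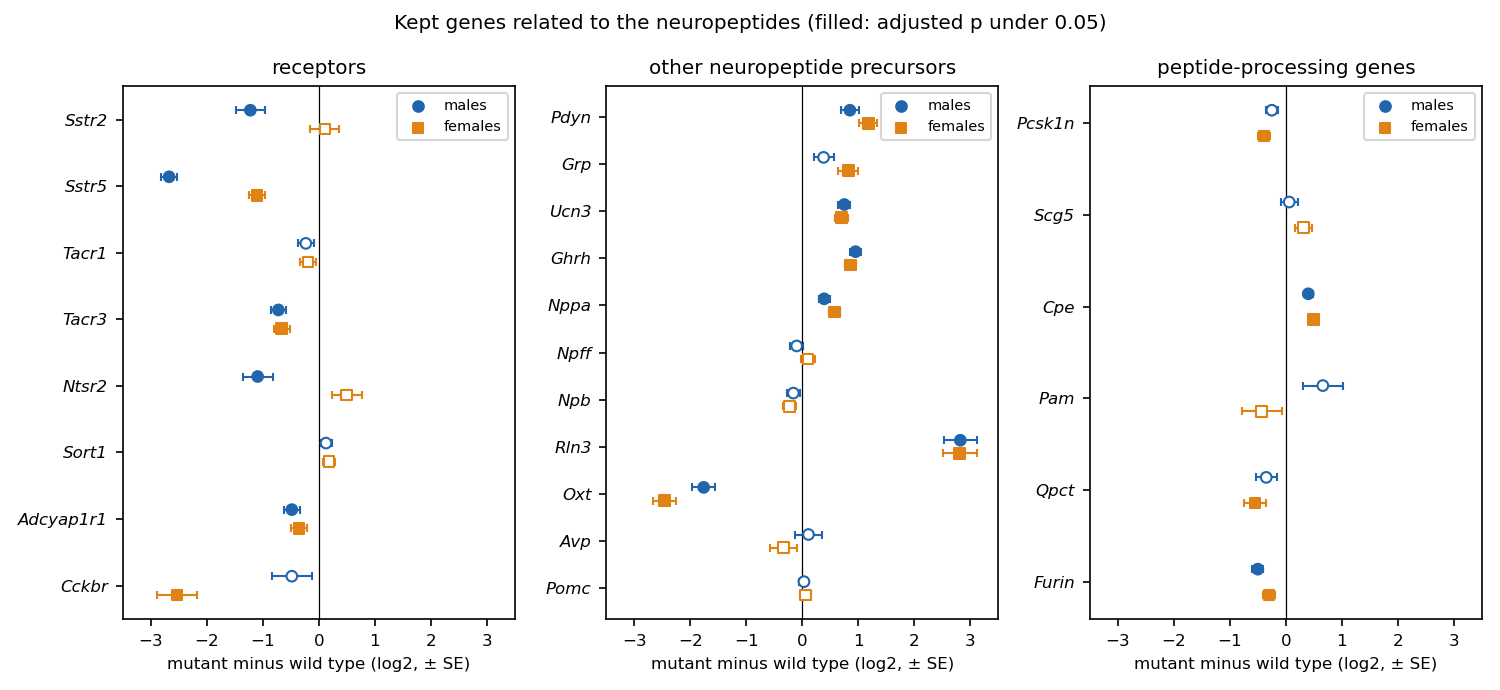
Mutant minus wild-type log2 difference ± SE (x axis) in males (circles) and females (squares) for the kept receptor genes, other neuropeptide precursors and peptide-processing genes; filled symbols passed an adjusted p of 0.05, and the directions of Tacr3, Ghrh, Ucn3 and Nppa were set by the detection filter. Sstr5 in males (-2.67) and Cckbr in females (-2.53) lie farthest left among the receptors, and Rln3 (2.82 and 2.81) lies farthest right among the precursors. The filter also favoured the direction of Rln3 and Grp.

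Markers of other cell types moved with genotype beside these genes. Of all genes 25.0% were called higher and 26.5% lower in mutant males, and 22.8% higher and 25.5% lower in mutant females. Of 7 immune markers 6 were kept, and all 6 were called higher in mutants of both sexes (medians 1.56 in males and 0.92 in females); their summed intensity ran from 7269 to 12942 in mutant males against 2365 to 3922 in wild-type males, and from 5738 to 8663 in mutant females against 3230 to 4961 in wild-type females. Ptprc, the defining leukocyte marker, was undetected on all 24 arrays. Of 9 neuron markers 6 were kept, with 3 higher and 2 lower in males and 2 higher and 3 lower in females, and sums of 9851 to 12263 in mutant males against 5757 to 8182 in wild-type males, and 8968 to 14152 in mutant females against 6382 to 10596 in wild-type females. Syt1, a synaptic vesicle protein that endocrine cells also express, was higher (1.04 ± 0.11 in males and 1.27 ± 0.11 in females). It was the brightest of these markers on average. Nefm, a neurofilament subunit, was also higher in both sexes (0.86 ± 0.32, adjusted p = 0.025, in males and 0.96 ± 0.32, adjusted p = 0.014, in females), and Rbfox3, a nuclear marker of neurons, was higher in males (0.70 ± 0.29, adjusted p = 0.044) and differed by 0.58 ± 0.29 in females (adjusted p = 0.10). Without Syt1 the sums of the other 5, in which Slc17a6 is the brightest, ran from 1521 to 2910 in mutant males against 1678 to 2956 in wild-type males, and from 1685 to 3026 in mutant females against 2863 to 5849 in wild-type females. Slc17a6, a vesicular glutamate transporter, differed by -0.32 ± 0.22 in males (adjusted p = 0.24) and was lower in females (-1.31 ± 0.22, adjusted p = 2.5e-05). Slc32a1, the vesicular GABA transporter, was lower (-0.69 ± 0.21 and -1.81 ± 0.21), and Nefl was undetected throughout. Slc32a1 was above background on 2 mutant male and 1 mutant female arrays, against 4 wild-type male and 6 wild-type female arrays. Slc17a7, also called lower in both sexes, was above background on 2 mutant male and 1 mutant female arrays, against 2 and 4 wild-type ones. Both lay near the detection limit in mutants, and the filter favoured their direction.

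All 5 posterior lobe markers were kept, with 0 higher and 1 lower in males and 0 higher and 2 lower in females. The shares of all genes called, for this list and the next 2, are those of the paragraph above. Their sums ran from 279 to 518 in mutant males against 535 to 772 in wild-type males, and from 234 to 440 in mutant females against 615 to 852 in wild-type females. Without Oxt the sums of the other 4 overlapped, at 206 to 346 in mutant males against 231 to 307 in wild-type males and at 170 to 298 in mutant females against 224 to 315 in wild-type females. Oxt was the marker called in both sexes, and Rax and Nkx2-1, which mark the lobe's own cells, differed by 0.05 ± 0.16 and -0.18 ± 0.17 in males and by -0.16 ± 0.16 and -0.19 ± 0.17 in females. Of 7 oligodendrocyte and astrocyte markers 5 were kept, with 1 higher and 0 lower in males and 1 higher and 1 lower in females, and sums of 812 to 897 in mutant males against 704 to 910 in wild-type males, and of 780 to 866 in mutant females against 930 to 1341 in wild-type females. Mbp, myelin basic protein, made up most of these sums, and without it the other 4 summed to 280 to 445 in mutant males against 215 to 265 in wild-type males and to 277 to 376 in mutant females against 229 to 303 in wild-type females. Mog was undetected on all arrays. Of the 2 genes listed for the intermediate lobe Tbx19 was kept, with 390 to 724 in mutant males against 601 to 995 in wild-type males. In females it ran from 315 to 723 in mutants against 468 to 1035 in wild types and was called lower. Pax7 was undetected, and nothing is read of the intermediate lobe from Tbx19 alone. The part of these cells in the neuropeptide values was not tested.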

How the data were processed

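Per the file headers, the deposited non-normalized table gives for each probe and array the mean bead intensity on a linear scale, a detection p-value, the bead count and the standard error between beads. Signals were summarised by the authors with GenomeStudio 2011.1, per the submitters' processing notes. A second deposited table of processed intensity, whose normalization the sources used here do not state, served only as an alternative.

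Raw intensities were background-corrected, quantile-normalized and put on a log2 scale with limma 3.58.1 in R 4.3.3 (neqc, offset 16; the negative controls were inferred from the detection p-values). Probes detected (p under 0.05) on 6 or more of 24 arrays were kept, 23133 in all. Each gene took its brightest kept probe. Of all probes, 34885 carried 1 gene symbol in the platform annotation, 18 several and 10378 none. The model held 1 mean for each of the 4 groups and 1 shared spread (lmFit, eBayes), with Benjamini-Hochberg adjustment over 12027 genes at a threshold of 0.05. An SE or interval thus does not follow the spread of only the groups compared. It is too narrow where these spread more than the others. Examples are Sst, Tac1 and Cartpt between the mutant sexes and Gal between mutant and wild-type females. The number of arrays limits the precision. An at least N-fold bound was used where all 6 arrays of a group were undetected and all 6 of the other detected. It was taken against the higher of each array's lowest detected signal and the gene's own.

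The neuropeptide genes, the receptor, precursor and processing lists and the cell type markers were all chosen with earlier results of these data known. All 10 neuropeptide genes are named. From each related list up to 5 kept genes called in either sex were named, by smallest adjusted p, and for each neuropeptide gene up to 2 genes of highest correlation. Red blood cell markers (2 of 3 kept) were called in neither genotype comparison. Alternatives covered the table, scaling, background, detection filter, probe choice, model and each array left out, and, added after the data were seen, raw background and a common floor.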

Additional observations from a re-analysis of the deposited data

Results flagged for a closer look

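Among the 36 sets of 6 arrays formed by the 9 kept neuropeptide genes and the 4 groups, 1 held an array far from the rest, and chance alone gives about 1 in 20. Nmb measured 7.07 in wild-type male 4, against 6.72 in the nearest of the other wild-type males, a gap of 0.632 of the group's range. That array had the highest 5th percentile of raw signal of the 24, 95.4, and its part in the value was not tested.

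The genotype difference parted between females and males for 6 genes, given as the female minus the male log2 difference. Gal (-4.25 ± 0.39) and Vip (-2.64 ± 0.62) were lower in mutant females and differed by 0.01 ± 0.28 and 0.30 ± 0.44 in males. Cckbr followed them (-2.05 ± 0.51, limma adjusted p = 0.0089). The receptor Sstr5 (1.57 ± 0.20, adjusted p = 8.2e-06) was lower in mutants of both sexes, by more in males. Ntsr2 (1.59 ± 0.38, adjusted p = 0.0065) and Sstr2 (1.33 ± 0.36, adjusted p = 0.016) were lower in mutant males, and differed by 0.50 ± 0.27 (adjusted p = 0.13) and 0.11 ± 0.26 (adjusted p = 0.74) in females. The calls of Vip and Ntsr2 were lost on the arrays of higher raw background, that of Cckbr on those of lower, and that of Sstr2 on either set.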

How the results depend on the processing

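Of 36 alternatives (24 leaving out 1 array each, 12 others, 4 of these chosen after seeing the data), none turned the direction of a called difference among the named related genes. The values of the neuropeptide genes under the alternatives are a description, since the genes were chosen on these arrays. The stricter detection filter dropped Penk and Cck, so that 1 gene (Nmu) was called lower in males. Restricted to the 12 arrays of lower raw background, the counts over all genes were 4014 in males, 3611 in females, 185 for the difference of the genotypes between the sexes, 1409 for the sexes in wild types and 4 in mutants. On the 12 of higher raw background they were 4073, 3676, 311, 979 and 3, with fewer arrays in each fit. With only the groups compared in the fit, 2 genes parted the mutant sexes, and the difference between the sexes has no value. Leaving out 1 array gave 5799 to 6291 genes in males, 5374 to 5845 in females, 1331 to 1884 for the difference between the sexes, 2808 to 3380 for the wild-type sexes and 6 to 9 for the mutant sexes, with 3 to 4 neuropeptide genes higher in males, 2 lower in males, 3 higher and 4 lower in females. The female minus male difference of Penk (0.44) was called with a common floor (0.42) and without wild-type male 3 (0.51), wild-type female 4 (0.48) or mutant male 6 (0.51); the cause was not tested. The wild-type sex difference of Tac1 was called with only the groups compared and without mutant male 1 or mutant female 3, at -1.02 in each. Calls gained were the male difference of Pcsk1n (trend and robust setting, or without wild-type male 1 or mutant male 6) and of Qpct (only the groups compared), and the female minus male difference of Oxt without mutant male 1 (-0.85) or mutant female 4 (-0.84). No paired analysis was possible because the labels give each sample a serial number of its own and no replicate number that groups share; the numbers 1 to 6 follow the order of deposit and only name arrays. In each group arrays 1 to 3 had the lower and arrays 4 to 6 the higher raw background. With that split as a block, 6277 genes were called in males, 5881 in females, 1748 for the difference between the sexes, 3366 for the wild-type sexes and 9 for the mutant sexes. A fit with the slide as a block was not run, because no slide is named in the headers used here. Signals near background limit what can be said of Nts, Cck, Penk and the dim receptors.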

Other observations

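Of the 8 kept receptor genes, 4 were called between the wild-type sexes, 1 higher and 3 lower in females, where 12.5% of all genes were called higher and 14.8% lower; Tacr1, Tacr3, Sort1 and Adcyap1r1 were not. In wild-type females against wild-type males, Ntsr2 was 3.66-fold lower (6.09 ± 0.45 against 7.96 ± 0.34, SD, n = 6 each; limma adjusted p = 1.1e-05), Sstr2 3.17-fold lower (6.76 ± 0.55 against 8.42 ± 0.68; adjusted p = 2.7e-05) and Sstr5 2.30-fold lower (6.70 ± 0.15 against 7.90 ± 0.30; adjusted p = 6.2e-07), each without overlap. Cckbr was 4.04-fold higher (7.92 ± 1.2 against 5.90 ± 0.38; adjusted p = 0.00017). Of the 8 kept receptors 0 were called between the mutant sexes (1 at an unadjusted p under 0.05).

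Grp, gastrin-releasing peptide, a bombesin-like relative of neuromedin B, was singled out after its values were seen. It was detected on 5 of 6 mutant female arrays and on none of 6 wild-type female arrays. This difference lay close to the detection limit and has no least fold. In males Grp measured 5.89 ± 0.41 in mutants against 5.51 ± 0.30 in wild types (SD, n = 6 each, limma adjusted p = 0.075).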
